A study of Mus musculus with 3 samples.

Results

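The genes described here encode RNA polymerase II, the enzyme that makes messenger RNA, together with the Mediator complex and factors that start, pause and release the enzyme. The members were taken by symbol: 13 polymerase genes, 27 Mediator genes, 7 genes of pausing and elongation factors and 3 initiation genes. These are 50 of 55536 annotated genes and of 22028 protein-coding genes. All 50 symbols matched 1 gene each.

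RNA bound to chromatin was sequenced after depletion of ribosomal RNA. It came from primary C57BL/6J mouse macrophages grown from bone marrow and given lipid A, the part of endotoxin that activates TLR4, at 100 ng/ml for 30 min. The samples form 1 group of 3 libraries, called libraries 1, 2 and 3 after their replicate numbers, made from 1 µg, 250 ng and 500 ng of RNA. Untreated cells and other RNA fractions were not analysed here, so the values are levels and not responses to lipid A. Sex and age of the mice were not collected, and the libraries share 1 donor record, so that whether they come from separate mice is not given. All values describe the spread between these 3 libraries, which may be technical. An exact two-sided sign-flip test over 3 libraries cannot give a p below 0.25 and so cannot reach 0.05. No test was made.

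Depth was 16301150, 17033725 and 16205704 expected counts over annotated genes. A count of 0 allows up to 3 counts or, as counts scaled by library depth (CPM), 0.184, 0.176 and 0.185, and this limit covers counting error only. All 8 macrophage markers examined were detected, at 7.61 TPM (transcript abundance per length of transcript, scaled to a fixed total) or more, against 6 of 27 markers of other cell types. Those 6 were 3 of 4 stromal markers, 2 of 3 endothelial markers and 1 of 4 dendritic-cell markers. The highest stromal, endothelial and dendritic-cell markers were Col3a1 at 0.24, Kdr at 1.18 and Zbtb46 at 0.62 TPM. The 4 T-cell, 4 B-cell, 5 neutrophil and 3 erythroid markers were all undetected. The part of other cell types in the results was not tested. TPM moved with the library: of 10983 detected protein-coding genes, 9610 were highest in library 3. Genes were therefore compared with each other inside a library, and libraries were compared by log2 CPM.

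As background, polymerase II is built on a large subunit with a repetitive tail, to which initiation and elongation factors bind. Mediator bridges enhancer-bound activators and the polymerase: its head and middle modules touch the enzyme, its tail module meets activators, and Med14 holds the modules together. A kinase module binds the rest of Mediator reversibly. Shortly after initiation the factors DSIF and NELF hold the polymerase near the promoter, and kinases release it. Many genes that macrophages induce on contact with endotoxin are controlled at these steps.

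A gene was taken as detected where its expected counts averaged 10 or more, and 43 of the 50 genes were (86.0%), where 49.9% of all protein-coding genes were. The undetected genes were Polr2d, Polr2i, Polr2l, Med18, Med30, Med31 and Supt4a, whose longest coding mRNAs have 706 to 1675 nt against a median of 2240 nt for the 50 genes. Each level below is the TPM of the first of 2 quantifications that the authors deposited, unless said otherwise. The median of all 50 members stood at 4.51 ± 1.50 TPM (SD, n = 3 libraries), beside 0.290 ± 0.123 for all protein-coding genes. The median of the 43 detected members was 5.53 ± 2.30 TPM, beside 4.94 ± 1.75 for detected protein-coding genes. Ranked among detected protein-coding genes of the same library, the median of all 50 members, the 7 undetected ones included, lay at percentile 47.9 ± 1.70, and that of the 43 at 52.4 ± 2.15. Mediator genes had a median of 6.82 ± 1.83 TPM, pausing genes of 5.71 ± 2.61, initiation genes of 7.05 ± 4.28 and polymerase genes of 1.40 ± 0.564. Polymerase genes were thus the lowest of the listed groups, with undetected members included, at percentile 23.5 ± 0.670 against 58.2 ± 1.82 for Mediator. The 6 other Mediator genes, outside the 50, lay lower still, at percentile 16.6 ± 3.70, so the difference holds for the Mediator genes listed.

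**Figure D1:**
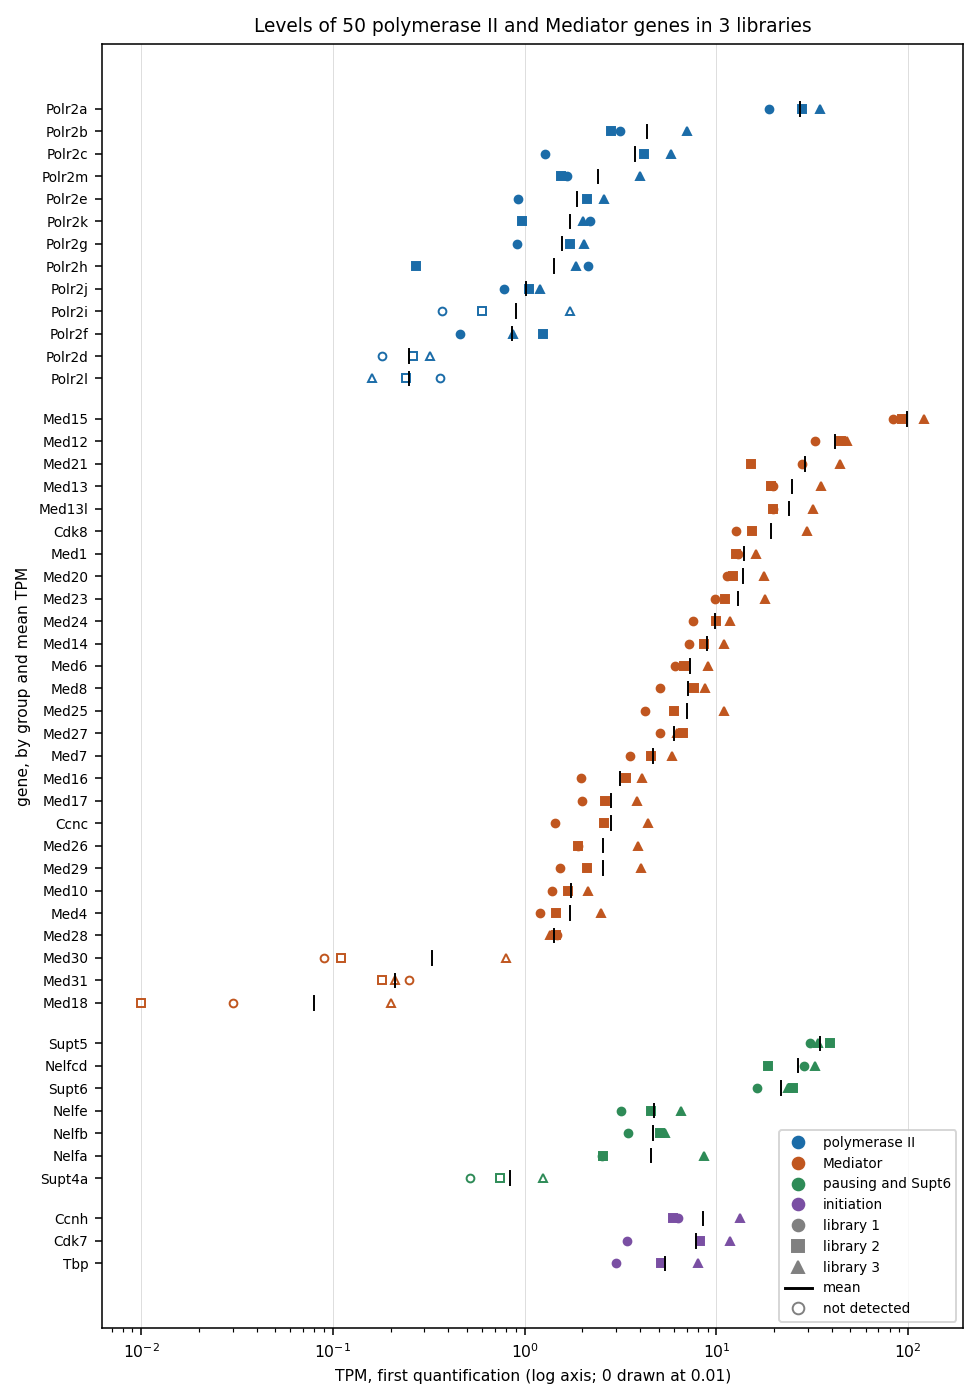
TPM of each of the 50 genes in library 1 (circle), library 2 (square) and library 3 (triangle), on a log axis, by group and mean (bar); open symbols mark undetected genes. Polr2a, with 18.7 to 34.8 TPM, stands above the other polymerase genes, Med15 is the highest gene in each library, and most triangles lie to the right.

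Inside each library the median polymerase gene lay below the median Mediator gene. The differences in log2(TPM + 0.1) were -2.34, -2.33 and -2.06 in libraries 1 to 3, a mean of -2.24 ± 0.16 or 4.73-fold. Against the pausing group the polymerase difference was -1.93 ± 0.11, with the same sign in 3 of 3 libraries. Mediator and pausing genes were close, with differences of 0.53, 0.40 and 0.02 and a mean of 0.32 ± 0.26. That difference turned to -0.46 ± 0.05 with detected members only, to -0.54 ± 0.06 with means in place of medians and to -0.50 ± 0.24 without length correction. Of the 13 polymerase genes 10 had under 3 TPM, beside 10 of 27 Mediator genes and 1 of 7 pausing genes.

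Among the polymerase subunits, Polr2a (ENSMUSG00000005198.15, chromosome 11, 69733997 to 69758637, minus strand, build mm10) stood apart. It encodes the largest subunit, which carries the catalytic centre and the tail. Its levels were 18.7, 28.1 and 34.8 TPM on 2227, 3104 and 2708 expected counts. The authors' credible intervals were 16.5 to 19.8, 25.0 to 29.2 and 29.9 to 35.7 TPM. TPM moves with the library, and by log2 CPM Polr2a had 7.18, 7.57 and 7.24, highest in library 2. Polr2b, for the second-largest subunit that completes the active site, had 3.14, 2.82 and 7.0 TPM. Polr2a lay above Polr2b by 2.70 ± 0.51 in log2(TPM + 0.1) and in each library. With protein-coding transcripts only the difference was 3.24 ± 0.07.

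The other subunits specific to polymerase II were lower. Polr2c, whose protein pairs with that of Polr2j during assembly, had 1.27, 4.21 and 5.77 TPM, with library 1 low. Polr2g and Polr2d encode the stalk, which binds emerging RNA, and stood at 1.56 ± 0.59 and 0.25 ± 0.07 TPM. Polr2d rested on 4, 5 and 4 counts. Polr2j had 1.01 ± 0.21 TPM and Polr2i, for a small subunit that bears on fidelity, had 0.90 ± 0.73 on 4 to 6 counts. Without library 3 the mean of Polr2i was 0.48 TPM.

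The 5 subunits that polymerases I, II and III share had a median of 1.25 ± 0.523 TPM, and the 7 specific to polymerase II of 1.56 ± 0.588. The order was not the same in each library: specific minus shared was -0.01, 0.77 and 0.14 in log2(TPM + 0.1). With protein-coding transcripts only it was 1.36 ± 0.50, positive in 3 of 3 libraries, and in the second quantification -0.37 ± 0.63. Polr2e had the highest mean of the shared subunits, at 0.92, 2.12 and 2.59 TPM, but lay below Polr2k and Polr2h in library 1. In the second quantification it had 1.63 ± 0.484, below Polr2k at 5.15 ± 1.93, and over protein-coding transcripts 0.84 ± 0.61. Polr2k had 1.73 ± 0.66, Polr2h 1.42 ± 1.01, Polr2f 0.86 ± 0.40 and Polr2l 0.25 ± 0.10 TPM. Polr2k was under the detection minimum without library 1, with a mean of 8.0 counts, and Polr2f without library 2, with 9.5. Polr2l passed it without library 3, with 11.0. Polr2m, whose protein binds polymerase II and bears on its response to Mediator, had 1.66, 1.55 and 4.01 TPM, and 1.60 without library 3. Leaving Polr2m out of the group gave a polymerase difference from Mediator of -2.30 ± 0.17.

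Mediator spanned the widest range of levels, from Med18 at 0.08 ± 0.11 TPM to Med15 at 99.1 ± 19.5. The kinase module was its highest part. The 5 genes grouped in it were all detected, with a median of 23.7 ± 7.16 TPM at percentile 82.9 ± 1.74. Cdk19, the paralog of Cdk8, and Med12l were outside this group, at 2.31 ± 0.96 and 0.19 ± 0.04 TPM. The head, middle and tail modules had medians of 2.82 ± 0.961, 2.56 ± 1.17 and 7.56 ± 3.02 TPM. The kinase module lay above the head by 3.03 ± 0.21, above the middle by 3.20 ± 0.18 and above the tail by 1.66 ± 0.24 in log2(TPM + 0.1), in 3 of 3 libraries each. The tail lay above the head by 1.37 ± 0.09. With protein-coding transcripts only, the kinase module remained above these modules by 2.33 ± 0.09, 2.22 ± 0.30 and 1.52 ± 0.15.

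Within the kinase module, Med12 encodes the subunit that activates the kinase, and it had 32.6, 44.5 and 47.9 TPM, second among the 50 genes in each library. Med13 and Med13l encode alternative subunits that tether the module to the rest of Mediator. Their levels were 19.8, 19.3 and 35.0 TPM for Med13 and 19.8, 19.8 and 31.9 for Med13l. The paralogs differed by 0.03 ± 0.09 in log2(TPM + 0.1), less than the spread. With protein-coding transcripts only, Med13 was higher by 0.68 ± 0.13, and in the second quantification by 0.35 ± 0.13. Cdk8, the kinase, had 12.7, 15.3 and 29.6 TPM. Ccnc, its cyclin partner, had 1.44, 2.60 and 4.38, and its library values do not reach those of Cdk8. The partners differed by 2.77 ± 0.27 in log2, and by 1.52 ± 0.51 with protein-coding transcripts only.

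The tail held the highest gene of all. Med15 (ENSMUSG00000012114.17, chromosome 16, 17651208 to 17732891, minus strand) encodes a subunit that activators bind. Its levels were 83.3, 93.2 and 121 TPM on 3922, 3992 and 3541 counts, at percentile 97.0 ± 0.191. It is the only member whose lowest value lay above the highest value of the next gene in the order of mean TPM, here Med12. The other tail genes followed with Med23 at 13.0 ± 4.37, Med24 at 9.82 ± 2.14, Med25 at 7.06 ± 3.45 and Med27 at 6.01 ± 0.84 TPM. The lowest tail genes were Med16 at 3.15 ± 1.09 and Med29 at 2.55 ± 1.31. Med14, the scaffold, had 7.18, 8.57 and 11.0 TPM.

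The middle module was led by Med21 (chromosome 6, 146642547 to 146650732, plus strand), whose protein pairs with that of Med7 to form a hinge of the complex. Med21 had 27.8, 15.1 and 44.1 TPM on 844, 370 and 747 counts, with library 2 low on both scales. Med1, the subunit that nuclear receptors bind, had 13.0, 12.6 and 16.0 TPM. Med7, Med26, Med10 and Med4 stood at 4.66 ± 1.17, 2.56 ± 1.17, 1.74 ± 0.38 and 1.72 ± 0.68. Med31 was undetected at 5, 3 and 2 counts.

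In the head module Med20 was highest, with 11.3, 12.2 and 17.7 TPM, followed by Med6 at 7.28 ± 1.53 and Med8 at 7.14 ± 1.88. Med17, the central head subunit, stood at 2.82 ± 0.96 TPM. Med28 had 1.48, 1.45 and 1.35 TPM and was lowest in library 3, unlike most members. Med30 had 2, 2 and 7 counts, and its mean of 0.33 TPM was 0.10 without library 3. Med18, on 1, 0 and 2 counts, was the lowest member, at 0.08 TPM and at 0.01 without library 3. Its credible intervals reached 0.309, 0.329 and 0.787 TPM, so that its place below Med31 was not resolved at this depth.

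Of the 2 DSIF subunits, Supt5 was high and Supt4a undetected. Supt5 (chromosome 7, 28314891 to 28338746, minus strand), the large subunit that contacts polymerase and RNA, had 30.8, 39.1 and 33.9 TPM. Supt4a, its small partner, had 0.52, 0.74 and 1.25 TPM on 7, 9 and 10 counts. The partners lay 5.28 ± 0.54 apart in log2(TPM + 0.1) and 4.95 ± 0.37 apart in the second quantification. Supt4a has a processed pseudogene, Supt4b, with 99.1% identity over 351 nt. Supt4b was at 0 counts in each library, and no reads were assigned to the copy. Supt6, an elongation factor and histone chaperone, had 16.3, 25.2 and 23.6 TPM.

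Among the 4 NELF subunits Nelfcd was the highest. Nelfcd (chromosome 2, 174415804 to 174427502, plus strand) had 28.5, 18.5 and 32.5 TPM. Nelfe, whose protein binds RNA, had 3.18, 4.57 and 6.51, Nelfb 3.47, 5.07 and 5.41, and Nelfa 2.54, 2.57 and 8.58. Nelfcd lay above Nelfa by 2.72 ± 0.77, above Nelfb by 2.47 ± 0.58 and above Nelfe by 2.47 ± 0.58 in log2(TPM + 0.1), in 3 of 3 libraries each. With protein-coding transcripts only these differences were 0.88 ± 0.66, 0.99 ± 0.18 and 1.36 ± 0.61. Nelfa was high in library 3 on the count scale too, with 149, 141 and 299 counts. Its mean of 4.56 TPM was 2.55 without that library.

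Of the initiation genes, Tbp, the protein that binds the TATA box, had 3.01, 5.11 and 8.02 TPM. Cdk7 and Ccnh encode the kinase and cyclin of TFIIH, which phosphorylate the polymerase tail. Cdk7 had 3.43, 8.25 and 11.8 TPM and Ccnh 6.32, 5.95 and 13.3. Unlike the kinase and cyclin of Mediator, this pair overlapped: Cdk7 minus Ccnh was -0.86, 0.46 and -0.17 in log2(TPM + 0.1). With protein-coding transcripts only, Cdk7 minus Ccnh was -1.54 ± 0.72.

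In the order of mean TPM of the 50 genes, 1 of 49 neighbouring pairs had ranges that did not overlap, and 6 kept the same order in all 3 libraries. The order between close neighbours was therefore not resolved. Level followed the size of the gene among these members. Across the 50 genes the Spearman correlation of mean log2 TPM was 0.61 with the length of the longest coding mRNA, 0.66 with the span of the gene and 0.71 with the number of exons. Across all protein-coding genes the same values were 0.31, 0.31 and 0.43. Among the 43 detected members they were 0.51, 0.56 and 0.66, beside 0.15, 0.23 and 0.36 across detected protein-coding genes. These are descriptions across genes that share libraries and subunit families, and TPM already divides by length.

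**Figure D2:**
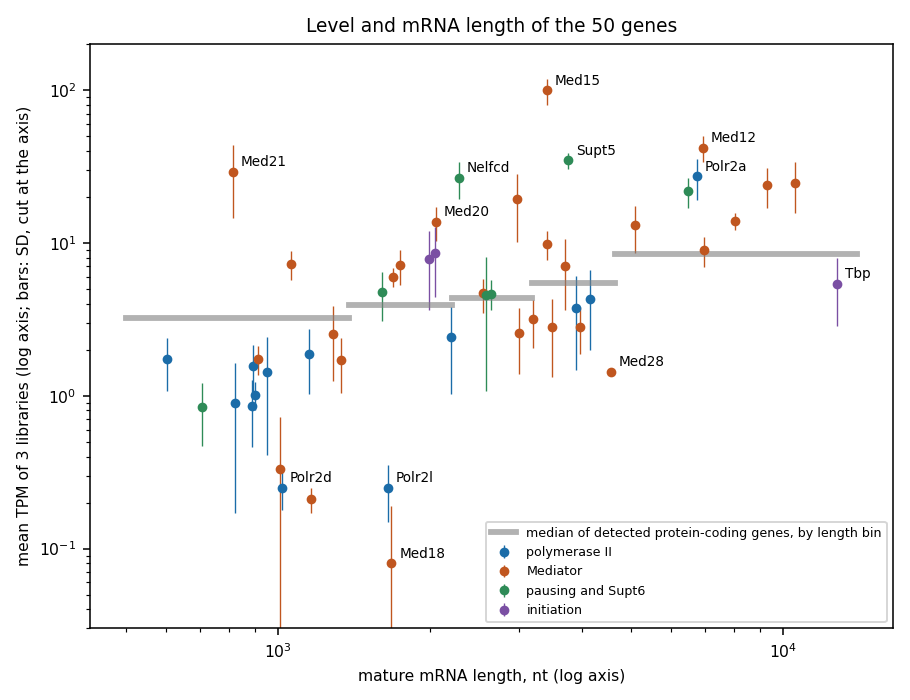
Mean TPM of the 50 genes (bars: SD over 3 libraries) against the length of the longest coding mRNA, both on log axes, with the median detected protein-coding gene in each of 5 bins of mRNA length as a grey line. Short-mRNA members lie mostly below the grey line, with Med21, at 29.0 TPM, and Med6 as exceptions, and 9 long-mRNA members lie between 5.38 and 41.7 TPM.

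Protein-coding genes were split into 5 equal bins by mRNA length. In the bin of shortest genes, with mRNAs up to 1380 nt, 11 of 16 members were detected, where 23.5% of all protein-coding genes of that length were. The median of those 11 was 1.73 TPM, beside 3.21 for detected protein-coding genes. In the bin of longest genes 9 of 9 members were detected, beside 65.6%, with a median of 21.7 TPM beside 8.43. The groups differ in length: the median coding mRNA had 1015 nt in the polymerase group, 2997 nt in Mediator and 6940 nt in the kinase module. Ranked among detected protein-coding genes of the same length bin, again with undetected members included, the median polymerase gene lay at percentile 24.0 ± 1.07 and the median Mediator gene at 54.2 ± 0.562. The kinase module lay at 75.7 ± 2.59 and the pausing group at 56.6 ± 2.90.

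Much of this RNA was assigned to transcripts that encode no protein. GENCODE M21 lists 294 transcripts for the 50 genes: 155 protein-coding, 81 with a retained intron, 44 processed transcripts without an open reading frame and 14 targets of nonsense-mediated decay. For 14 of the 43 detected genes (32.6%) the transcript with the highest share of the gene's abundance was noncoding, beside 29.2% of detected protein-coding genes. Of the 38 detected members with an annotated noncoding transcript, 14 (36.8%) had such a main transcript, beside 35.6%. Under 50% of abundance lay in protein-coding transcripts for 13 of 43 (30.2%), beside 35.4%. All 3 shares were near those of other genes. By group, the noncoding main transcript was found in 1 of 10 detected polymerase genes, 10 of 24 Mediator genes, 2 of 6 pausing genes and 1 of 3 initiation genes. The only undetected gene with one was Med31.

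**Figure D3:**
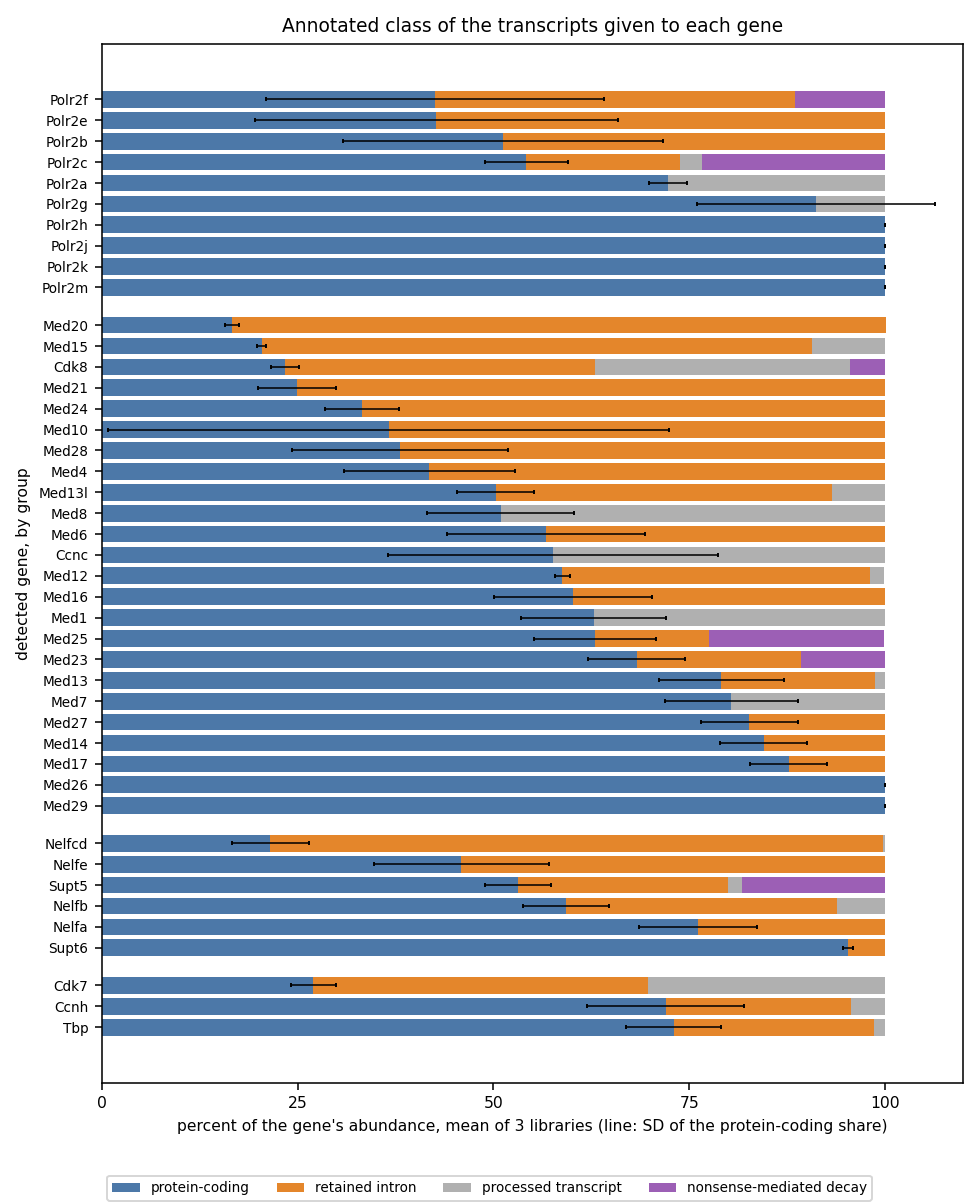
Share of each detected gene's abundance in protein-coding, retained-intron, processed and nonsense-mediated-decay transcripts, as the mean of 3 libraries; the line on each bar is the SD of the protein-coding share. Med20, Med15, Nelfcd, Cdk8 and Med21 have 16.6% to 24.9% in protein-coding transcripts, while Supt6 has 95.3%.

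The protein-coding share was 16.6% ± 0.9 for Med20, 20.4% ± 0.6 for Med15, 21.5% ± 4.9 for Nelfcd, 23.4% ± 1.8 for Cdk8, 24.9% ± 5.0 for Med21 and 27.0% ± 2.9 for Cdk7. It was 33.2% ± 4.7 for Med24, 36.6% ± 35.8 for Med10 and 38.1% ± 13.8 for Med28. These shares are per transcript length, so that short transcripts weigh more than their reads. In expected counts the protein-coding share was 11.3% ± 0.6 for Med20, 8.2% ± 1.8 for Med21, 31.8% ± 1.4 for Med15 and 23.9% ± 2.6 for Cdk8. For Nelfcd it was 56.3% ± 8.2. It was 87.8% ± 6.6 for Med28, on 40, 45 and 48 coding counts, and 79.3% ± 8.5 for Nelfe, whose share of abundance was 45.9% ± 11.2. Nelfcd, Med28 and Nelfe thus lay under 50% by abundance and over it by counts. Of the 43 detected genes 10 (23.3%) had under 50% of counts in protein-coding transcripts, beside 21.6% of detected protein-coding genes. At the other end, the 48.8% ± 20.4 of Polr2b in retained-intron transcripts rested on 7, 6 and 6 counts, beside 142, 201 and 160 in its coding transcript.

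In Med20, the transcript with the largest mean share was Med20-203, with 577, 641 and 578 counts, against 87, 91 and 90 for the coding transcript Med20-201. In library 1 and in the second quantification Med20-202, a shorter retained-intron transcript on 23, 14 and 16 counts, had the larger share. Its share in the second quantification was 41.4% ± 3.0, beside 33.5% ± 0.1 for Med20-203. Med20-203 keeps the whole of intron 3 of the coding transcript, which is 3822 nt long. This intron lies at chr17:47619063-47622884 on the plus strand, with coding sequence on both sides. In Nelfcd, Nelfcd-205 held 51.5% ± 4.7 of the abundance on 149, 86 and 112 counts, and it keeps all 373 nt of intron 9, at chr2:174424741-174425113 on the plus strand. In the second quantification it held 25.6% ± 0.6, beside 27.8% ± 5.3 for Nelfcd-206, also annotated with a retained intron. The splice sites of these 2 introns are printed because they mark where the counted transcripts differ from the coding mRNA. Each line gives 40 nt across 1 boundary, read 5′ to 3′ from the GENCODE M21 transcript sequences (mm10), with 15 nt of exon and 25 nt of intron. Capitals mark the GT that opens the intron or the AG that closes it.
Med20 intron 3, 5′ splice site, chr17:47619048-47619087, plus strand: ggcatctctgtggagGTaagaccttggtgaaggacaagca
Med20 intron 3, 3′ splice site, chr17:47622860-47622899, plus strand: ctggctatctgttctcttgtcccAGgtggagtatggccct
Nelfcd intron 9, 5′ splice site, chr2:174424726-174424765, plus strand: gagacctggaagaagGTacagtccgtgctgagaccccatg
Nelfcd intron 9, 3′ splice site, chr2:174425089-174425128, plus strand: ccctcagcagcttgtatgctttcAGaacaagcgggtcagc
All 4 sites carry the usual GT and AG. An annotated gene on the same strand, Gm20517, and a pseudogene on the other, Kpna2-ps, share exon bases with Med20 and lie partly in intron 3. They had 171 to 239 and 9 to 22 counts, and their part in the Med20 count was not tested.

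The leading transcripts of Med15 and Med21 read into an intron and end there. Med15-209, with 1394, 1420 and 1327 counts, runs through the 5′ splice site of intron 5 of the coding transcript and covers 2582 of its 5890 nt. Med21-206 is a single exon of 1395 nt that starts near the 5′ end of the gene and covers 1321 of the 5512 nt of intron 1, which the coding transcripts Med21-201 and Med21-203 have in common. It had 421, 182 and 379 counts, and Med21-202, also annotated with a retained intron, had 368, 150 and 308. The coding transcript Med21-203 had 55, 37 and 60. The drop of Med21 in library 2 was thus found in both retained-intron transcripts and, on fewer counts, in the coding transcript Med21-203. The boundaries that these transcripts read through are printed in the same form.
Med15 intron 5, 5′ splice site, chr16:17680524-17680563, minus strand: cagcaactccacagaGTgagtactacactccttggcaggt
Med21 intron 1, 5′ splice site, chr6:146642638-146642677, plus strand: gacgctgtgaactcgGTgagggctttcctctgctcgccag
Med24-204 kept intron 6 of Med24-201, of 1384 nt, with coding sequence on both sides. It had 388, 423 and 439 counts against 177, 254 and 104 for Med24-201. In Cdk8 the largest share was that of Cdk8-209, a processed transcript of 3896 nt of which 98.4% lies outside coding exons, with 399, 407 and 629 counts. RNA still being made on chromatin carries introns, and such reads can only be assigned to annotated transcripts that hold the intron. Unspliced precursor and a lasting retained-intron transcript cannot be told apart in these files.

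Counting only protein-coding transcripts changed the order at the top. Med12 then led with 24.5 ± 4.47 TPM, followed by Supt6 at 20.7 ± 4.60, Med15 at 20.2 ± 4.05, Polr2a at 19.8 ± 6.47, Med13 at 19.1 ± 4.70 and Supt5 at 18.4 ± 2.87. Med15 lay above Med12 by 1.25 ± 0.16 in log2(TPM + 0.1) over all transcripts and the same difference was -0.28 ± 0.10 with coding ones. Med21 moved from rank 4 to 11 with 6.99 ± 3.47 TPM, and Nelfcd from rank 6 to 13 with 5.51 ± 1.03. Med20 had 2.29 ± 0.69 TPM and Cdk8 4.41 ± 1.77. The polymerase difference from Mediator was then -1.56 ± 0.10.

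**Figure D4:**
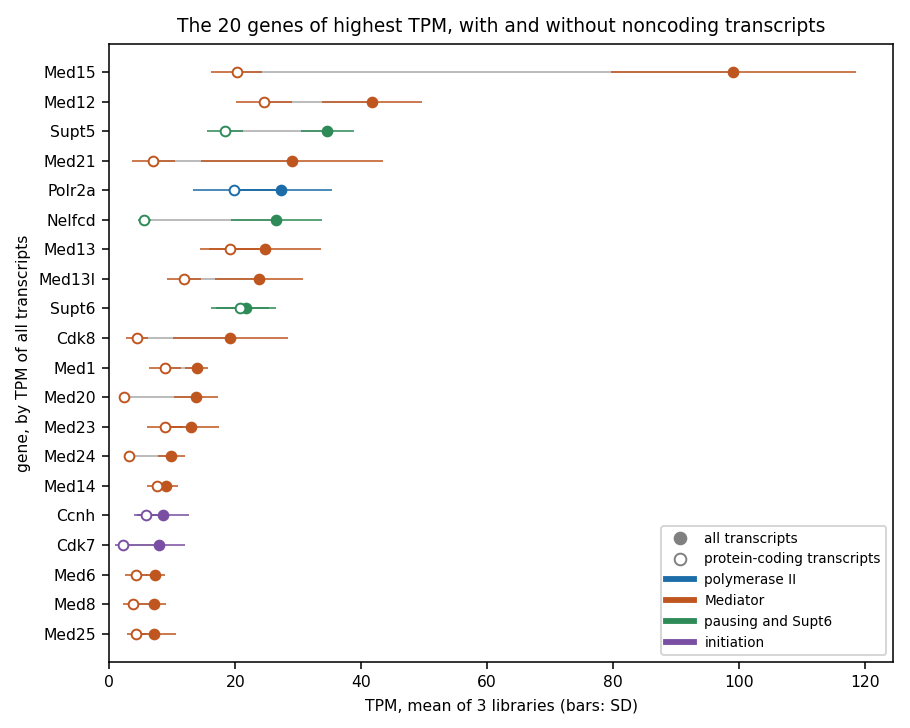
Mean TPM of the 20 highest genes over all transcripts (filled) and over protein-coding transcripts only (open), with SD over 3 libraries. Med15 moves from 99.1 to 20.2 TPM and Nelfcd from 26.5 to 5.51, while Supt6 stays at 21.7 and 20.7.

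The libraries were compared by log2 CPM after TMM scaling. The median SD over libraries was 0.24 for detected members and 0.26 for detected protein-coding genes. By TPM 36 of the 43 were highest in library 3, but by log2 CPM 9 were, with 21 highest in library 2 and 13 in library 1. Of 10983 detected protein-coding genes, 9610 were highest in library 3 by TPM. By log2 CPM 3552 of them were, with 4462 highest in library 2 and 2969 in library 1. The median detected member deviated from its own mean by 0.12 in library 2 and by -0.12 in library 3, beside 0.05 and -0.03 for detected protein-coding genes. For 24 of the 43 the range was under 0.5, with Med4 and Med23 the narrowest at 0.10 each. It was over 1 for 4: Polr2h, with 40, 4 and 20 counts and a range of 3.25, Polr2k (1.46), Med21 (1.27) and Polr2c (1.04). Among the undetected genes Med18 (2.23), Polr2l (1.89), Med30 (1.46) and Med31 (1.32) had ranges over 1 too, on at most 14 counts in any library. Ranges under 0.5 or over 1 were not counted over all protein-coding genes, so these counts cannot be set against other genes.

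**Figure D5:**
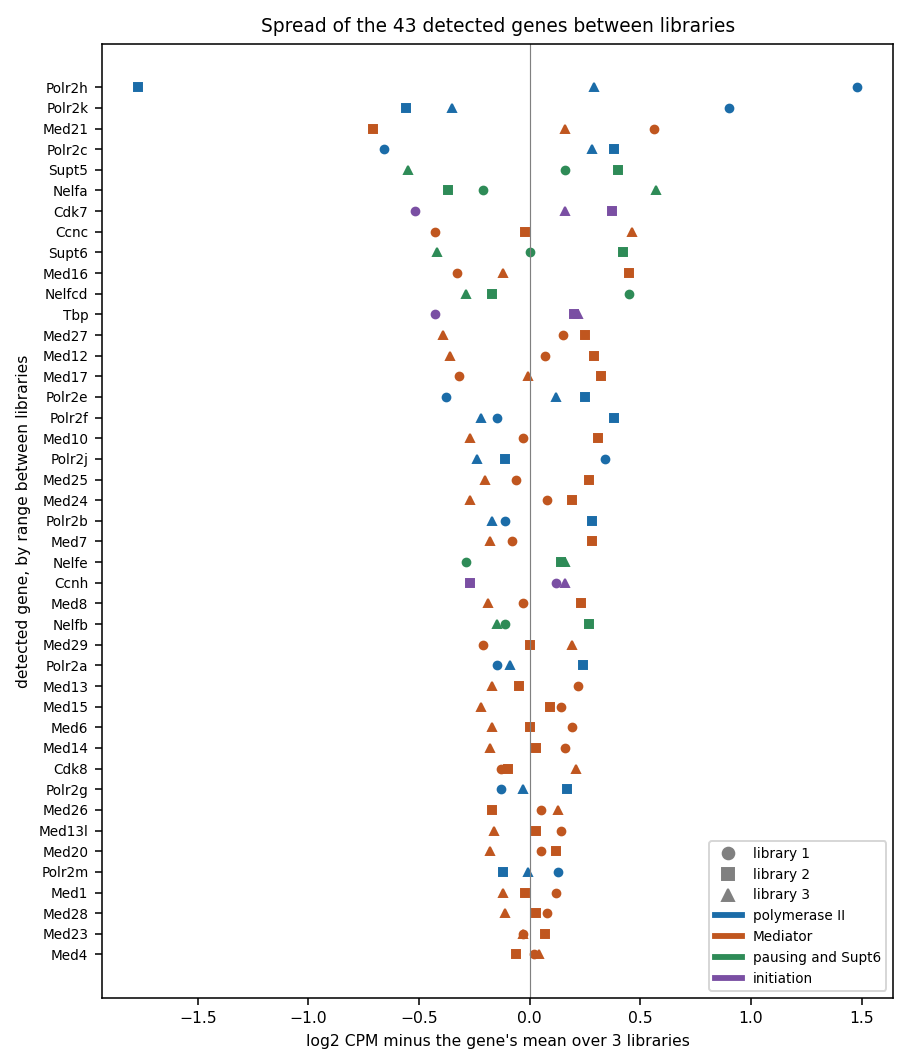
Log2 CPM of each detected gene in libraries 1, 2 and 3 minus its mean over the 3, ordered by range. Polr2h, Polr2k, Med21 and Polr2c have ranges over 1, and library 2 is the low one for the first 3 of them.

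Subunit genes with near-identical copies are uncertain. Only the longest coding transcript of each member was searched for copies, and retained-intron transcripts were not. Stretches of at least 200 nt with at least 95% identity lay elsewhere in the annotation for 7 members: Cdk8, Med4, Polr2c, Polr2h, Polr2k, Polr2l and Supt4a. Polr2l shares 382 nt with Usp50, which had 61 to 72 counts where Polr2l had 4 to 14. Polr2h shares 445 nt with the pseudogene Gm7511, which had 2, 6 and 1 counts. Exons of 27 members overlap those of another gene, on the opposite strand for 24. Copies and overlaps were not counted over all protein-coding genes, so neither count can be called particular to these members. The strand setting is not given in the sources used here, so reads of such pairs may not be separated. Med10 is the extreme case, with 92.8% of its exon bases under the antisense RNA Gm26819, which had 160 to 212 counts against 49 to 67 for Med10.

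The second quantification, which the deposited notes list as derived from read files, gave higher TPM for 44 of the 50. The same was true of 9641 of 10976 detected protein-coding genes, so this rise is not particular to the members. The median log2 ratio of second to first was 0.47, and 0.48 for detected protein-coding genes. The members with the largest ratios were Med18 (3.05), Polr2f (2.36), Polr2l (1.76), Polr2m (1.58) and Med27 (1.57). Med18 stood at 1.36 ± 0.587 TPM there and Polr2f at 4.83 ± 1.94. Med15 again led, with 137 ± 23.4 TPM, and 46 of 50 members reached a mean of 10 estimated counts. The share of all protein-coding genes that reached this mean was not counted.

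Related genes outside the 50 were read from lists of the same machinery. The 6 other Mediator genes had a median of 1.03 ± 0.729 TPM with 5 detected, from Med11 at 12.0 ± 2.75 to Med12l at 0.19 ± 0.04. Cdk19, the paralog of Cdk8, stood at 2.31 ± 0.96 TPM. All 15 general transcription factor genes passed detection, with a median of 5.31 ± 1.85 TPM, with Gtf2b highest at 27.6 ± 18.4. All 13 TFIID genes were detected too, at 3.26 ± 0.868. Of 16 listed entries for other elongation genes 15 were detected, and the other was the pseudogene Supt4b, at 0 counts in each library. The median, Supt4b included, was 9.10 ± 2.60 TPM. Paf1 was highest at 94.8 ± 23.1 TPM, followed by Cdk9, the kinase that releases paused polymerase, at 75.0 ± 18.5. Of 18 genes specific to polymerases I and III 17 were detected, at 2.88 ± 1.48.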

How the data were processed

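The first quantification that the authors deposited holds expected counts and TPM per gene and transcript, with posterior mean TPM, credible bounds and the percent of the gene's abundance in each transcript, per the file headers. The second holds estimated counts and TPM per transcript, also deposited by the authors. Both use mm10 and GENCODE M21, as notes deposited with the files state. Neither a tool nor its version is named there, and strandedness is likewise not stated. TPM carries no depth.

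Members and gene lists were chosen with earlier results of these data known. Within a library, a group's level is the median of its genes' log2(TPM + 0.1), and means ± SD are taken over libraries. Named were the 4 highest and 4 lowest genes of each group, all undetected ones, those with the highest noncoding share, the widest range or the largest second-to-first ratio, 13 genes by name, and 2 highest and 2 lowest genes of the other lists, of which some are given. Log2 CPM used edgeR 4.0.16 (TMM, prior count 0.5) in R 4.3.3, on expected counts as deposited. Alternatives included DESeq2 1.42.0 size factors. The 26345 rows without a GENCODE gene were left out. Copies were found with BLAST 2.17.0. Calculations were tested on simulated data.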

Additional observations from a re-analysis of the deposited data

How the results depend on the processing

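The number of detected members was 29 at a minimum of 100 counts and 50 at a minimum of 1, and within 1.5 times of the reported 43 in all settings. The median percentile of members was 74.0 with no filter on low values, 37.4 at a TPM of at least 1, 44.3 in the second quantification and 40.8 without length correction. The polymerase difference from Mediator kept its sign in every setting run and was -1.71 with a pseudocount of 1, -2.0 with detected members only, -1.70 with means, -1.99 in the second quantification, -1.74 with posterior mean TPM, -3.16 without length correction and -1.56 with protein-coding transcripts only. In the same order, the polymerase difference from pausing genes was -1.44, -2.46, -2.24, -1.59, -1.47, -3.66 and -1.43. The difference between Mediator and pausing genes changed sign with detected members only (-0.46), with means (-0.54) and without length correction (-0.50). Noncoding main transcripts were 15 of all 50 members in the main count, 22 in the second quantification, 18 by posterior mean and 12 to 17 when 1 library was left out. The median SD over libraries was 0.49 on the TPM scale, where it was 0.51 for detected protein-coding genes. Leaving out 1 library gave 42 to 44 detected members, percentiles of 46.9 to 48.4, differences of -2.34 to -2.19, -1.99 to -1.87 and 0.21 to 0.46 for the 3 contrasts in this order, and SDs of 0.22 to 0.24. Leaving out Polr2m or Supt6, chosen after seeing the data, moved no difference beyond its spread. The mean TPM of a member moved beyond its SD for 28 of 50 in the second quantification and for 11 with posterior means. Leaving out 1 of 3 libraries cannot move a mean beyond the SD of the 3, so this measure cannot show dependence on a library. The mean changed over 1.5-fold for 0 members without library 1, 0 without library 2 and 5 without library 3. TPM rescaled over protein-coding genes was over 1.5 times higher for all 50 members. Rescaling multiplies every gene of a library by the same factor, so this rise is no property of the members. No paired analysis was possible because there was 1 group. Depth limits the low genes: 14 of the 43 detected members had a mean under 100 counts, 8 of them polymerase genes.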
